A study of Mus musculus with 12 samples.

Results

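Axon guidance ligands and receptors are the 69 genes, of 45792 in the deposited tables, whose symbols name a semaphorin, plexin, neuropilin, netrin, netrin receptor (Dcc, Neo1 and the Unc5 family), Slit, Robo, ephrin or Eph receptor. They comprise 34 ligands (20 semaphorins, 3 netrins, 3 Slits and 8 ephrins) and 35 receptors (9 plexins, 2 neuropilins, 6 netrin receptors, 4 Robos and 14 Ephs). Expression was measured by sequencing of RNA depleted of rRNA in 12 cultures of primary neural stem cells (NSCs) from the forebrain of newborn mice, with 4 libraries in each of 3 groups. WT NSCs came from mice with intact Ncf1, the cytosolic p47phox subunit of NADPH oxidases. Ncf1-/- NSCs lacked this gene and were left without Igfbp2 (labelled as no treatment, and as vehicle in the study's methods). Igfbp2-treated Ncf1-/- NSCs lacked it too and received recombinant mouse Igfbp2, an insulin-like growth factor binding protein, from 48 h after plating, with RNA taken 48 h later. The labels give its dose as 100 ng/ml and the study's methods a lower one, so the dose is uncertain. All cultures were kept in serum-free medium with EGF and FGF. The comparisons asked which guidance genes differ when Ncf1 is absent and which of them respond to Igfbp2. No WT culture with Igfbp2 was analysed here, so Igfbp2 was compared in the Ncf1-/- background alone, at a single dose and time.

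Guidance ligands are secreted or membrane-bound proteins that steer migrating cells and growing axons by attraction or repulsion. Semaphorins signal through plexins, with neuropilins as co-receptors for most of the secreted class 3 members, netrins attract through Dcc and repel through Unc5 receptors, Slits repel through Robos, and ephrins signal in both directions with Eph receptor tyrosine kinases on neighbouring cells. In the neonatal forebrain these systems guide neuroblasts out of the subventricular zone, and several of them also act on precursors of the oligodendrocyte lineage.

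Levels are given as counts scaled to library size with TMM factors (CPM), and levels of different genes are compared only as CPM per kb of effective transcript length. Libraries held 18201622 to 34086554 estimated counts. Ncf1 itself had 1 to 7 counts in each library, so the genotype could not be checked from these data. The 4 WT libraries (numbered 9 to 12 in the labels) differed among themselves, with a biological coefficient of variation of 0.25, against 0.118 in Ncf1-/- and 0.122 in Igfbp2-treated libraries. The summed oligodendrocyte markers (9 genes, among them Mbp, Mag and Sox10) were at 7888, 8175, 1630 and 4812 CPM in WT 9 to 12, at 227 to 295 CPM in Ncf1-/- and at 258 to 340 CPM in Igfbp2-treated libraries, with Mog at the floor of 3 counts in each library of the last 2 groups. The summed neural stem cell markers (8 genes, Nes and Sox2 included) were at 2390, 2487, 7831 and 3640 CPM in WT 9 to 12 and at 7391 to 8200 CPM in the other 8 libraries. The list was not uniform, since Nes was at 118 to 447 CPM in WT and 696 to 960 CPM in Ncf1-/-, whereas Sox2 was at 371 to 408 CPM in WT and 191 to 200 CPM in Ncf1-/-. WT cultures labelled as NSCs thus carried high levels of oligodendrocyte genes. On the oligodendrocyte and stem cell lists WT 11 stood nearest to the Ncf1-/- cultures. On the summed astrocyte markers it stood furthest from them, at 12196 CPM against 6902 CPM in WT 9 and 2943 to 3429 CPM in Ncf1-/-. Y-linked genes summed to 105 to 116 CPM in Ncf1-/- and to 7.80 to 9.18 CPM in Igfbp2-treated libraries, although the study states that the same animals gave both. They were at 107 to 118 CPM in WT 9 to 11 and at 6.46 CPM in WT 12. Xist, an RNA of female cells, was at 72.3 to 87.8 CPM in Ncf1-/-, 166 to 275 CPM in Igfbp2-treated and 3.87 to 291 CPM in WT libraries. Each of the 4 untreated Ncf1-/- libraries thus held both Xist and Y-linked RNA. Whether each came from a single animal could not be told, so the spread within a group may not be that between animals. Igfbp2 and a difference in the sex of the cultures therefore cannot be told apart in every comparison of treated with untreated Ncf1-/- NSCs below. Treated cultures also differed from WT 9 to 11 in Y-linked RNA. A difference in sex is thus not separated when treated cultures are compared with WT either. Of the members, Plxnb3, Plxna3 and Efnb1 are X-linked. One of the sample sheets distributed with the study's code lists library 12 under apocynin, whereas its label gives WT and no treatment. Results that rest on WT 11 or WT 12 are given with and without them. In bulk RNA, fewer cells of a type and less RNA per cell cannot be told apart.

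The sequences upstream of 4 members are shown because these genes had the largest fall among receptors (Plxnb3), a large fall in its ligand (Sema5a), the largest rise after Igfbp2 (Unc5b) and the largest rise in Ncf1-/- NSCs (Epha2). Each is the stretch of 250 bases before the RefSeq start of the gene on GRCm38.p6, written on the coding strand. Positions are chrX:73756853-73757102 (plus strand) for Plxnb3, chr15:32244563-32244812 (plus) for Sema5a, chr10:60831582-60831831 (minus) for Unc5b and chr4:141300971-141301220 (plus) for Epha2. The windows lie upstream of the genes at X:73757090-73772514, 15:32244810-32696341, 10:60762593-60831581 and 4:141301240-141329384 in the GENCODE annotation, and the last bases of the first 2 windows overlap the annotated 5′ ends. Capitals mark matches, on either strand, to the GC box or to the SOX-type motif.
Plxnb3: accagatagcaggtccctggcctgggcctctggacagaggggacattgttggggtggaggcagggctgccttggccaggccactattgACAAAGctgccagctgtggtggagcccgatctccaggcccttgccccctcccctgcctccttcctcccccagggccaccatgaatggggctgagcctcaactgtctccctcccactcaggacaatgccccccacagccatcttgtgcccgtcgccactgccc
Sema5a: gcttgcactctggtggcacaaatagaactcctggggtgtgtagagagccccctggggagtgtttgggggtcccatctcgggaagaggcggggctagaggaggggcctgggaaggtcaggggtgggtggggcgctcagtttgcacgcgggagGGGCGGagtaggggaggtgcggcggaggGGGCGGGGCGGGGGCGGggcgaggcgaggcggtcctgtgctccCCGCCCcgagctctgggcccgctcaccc
Unc5b: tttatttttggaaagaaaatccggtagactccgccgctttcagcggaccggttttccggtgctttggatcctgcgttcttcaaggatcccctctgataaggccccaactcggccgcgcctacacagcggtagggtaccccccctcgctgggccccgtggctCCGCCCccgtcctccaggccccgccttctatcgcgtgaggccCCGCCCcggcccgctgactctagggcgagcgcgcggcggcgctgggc
Epha2: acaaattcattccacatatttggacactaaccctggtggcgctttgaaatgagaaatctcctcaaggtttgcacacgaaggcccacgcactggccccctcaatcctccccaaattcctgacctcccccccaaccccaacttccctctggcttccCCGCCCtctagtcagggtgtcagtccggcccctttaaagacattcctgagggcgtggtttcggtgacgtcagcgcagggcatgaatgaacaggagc
The motifs searched on both strands, with overlaps counted, were the GC box (GGGCGG), the SOX-type motif (ACAAAG), the CCAAT box (spelled as its name), the TATA box (TATAAA), the EGR-type motif (GTGGGCG) and the E-box (CACGTG). The Plxnb3 window held 1 match to the SOX-type motif and none to the others. The GC box was found 5 times in the Sema5a window, 2 times in Unc5b and 1 time in Epha2, with no match to any other motif there. Over all 32851 RefSeq windows of this length, 32.7% held the GC box, 16.5% the SOX-type motif, 33.8% the CCAAT box, 12.4% the TATA box, 7.02% the EGR-type motif and 6.02% the E-box. Over the 75 windows of the 59 members with an entry, the shares in the same order were 70.7%, 9.33%, 28.0%, 2.67%, 9.33% and 5.33%. A match describes letters in the window and is not a binding site.

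In WT NSCs the most abundant members per length were Sema6a (108 ± 34.8 CPM per kb, SD, n = 4), Plxnb3 (97.8 ± 42.6), Sema6d (78.3 ± 17.2), Plxnb2 (62.1 ± 9.79) and Plxnb1 (61.4 ± 7.26). Neighbours in this order differed by less than their spread. In Ncf1-/- NSCs the order was Plxnb2 (63.8 ± 5.36 CPM per kb), Ephb2 (40.5 ± 4.88), Ntn1 (37.4 ± 5.73) and Sema6d (36.1 ± 5.38), the last 3 within their spread of each other, and Plxnb3 stood at rank 24 with 5.49 ± 0.625. In Igfbp2-treated NSCs Plxnb2 (94.3 ± 5.83) and Ntn1 (94.2 ± 5.75) were level at the top, followed by Ephb2 (62.1 ± 4.38). The plexin of highest level thus stayed Plxnb2 in the Ncf1-/- groups, while the leading ligand was Sema6a in WT and Ntn1 in Igfbp2-treated cultures, with Ntn1 and Sema6d level in untreated Ncf1-/- cultures. The remaining 7 members (Epha6, Epha8, Ntn5, Robo3, Robo4, Sema3g and Slit3) were too low to be tested, and none of them exceeded 1.18 CPM in any library.

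Most guidance genes were lower in Ncf1-/- than in WT NSCs. Of the 62 members tested, 37 fell (59.7%), 11 rose (17.7%) and 14 were not called by edgeR's quasi-likelihood test at a Benjamini-Hochberg adjusted p under 0.05, against 28.2% of all 15706 genes tested that fell and 28.9% that rose. The median log2 fold change of the members was -0.81, and that of all genes 0.02. The 4 WT and 4 Ncf1-/- libraries did not overlap for 34 members that were lower and 7 that were higher, against 25.0% and 26.1% of all genes. Ligands and receptors were alike in this, with 19 of 31 ligands and 18 of 31 receptors called lower, at medians of -0.81 and -0.82. By family, 13 of 19 semaphorins, 7 of 9 plexins, 5 of 6 netrin receptors, 2 of 2 Slits, 1 of 2 Robos, 4 of 8 ephrins and 5 of 12 Ephs fell. Both netrins tested rose, as did 4 Ephs, 3 semaphorins and 2 ephrins, while neither neuropilin was called. Without WT 11 and WT 12 together, a setting chosen after the data had been seen, 37 members fell and 11 rose. Of all genes in that fit, 29.8% fell and 29.2% rose. These were not all the same members, and they include a member too low to be tested over all libraries. In that fit 44 of the 48 calls were kept. Epha10, Plxnd1, Sema3b and Sema3f lost their calls, and Robo1, Sema3e and Unc5d gained a call.

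**Figure D1:**
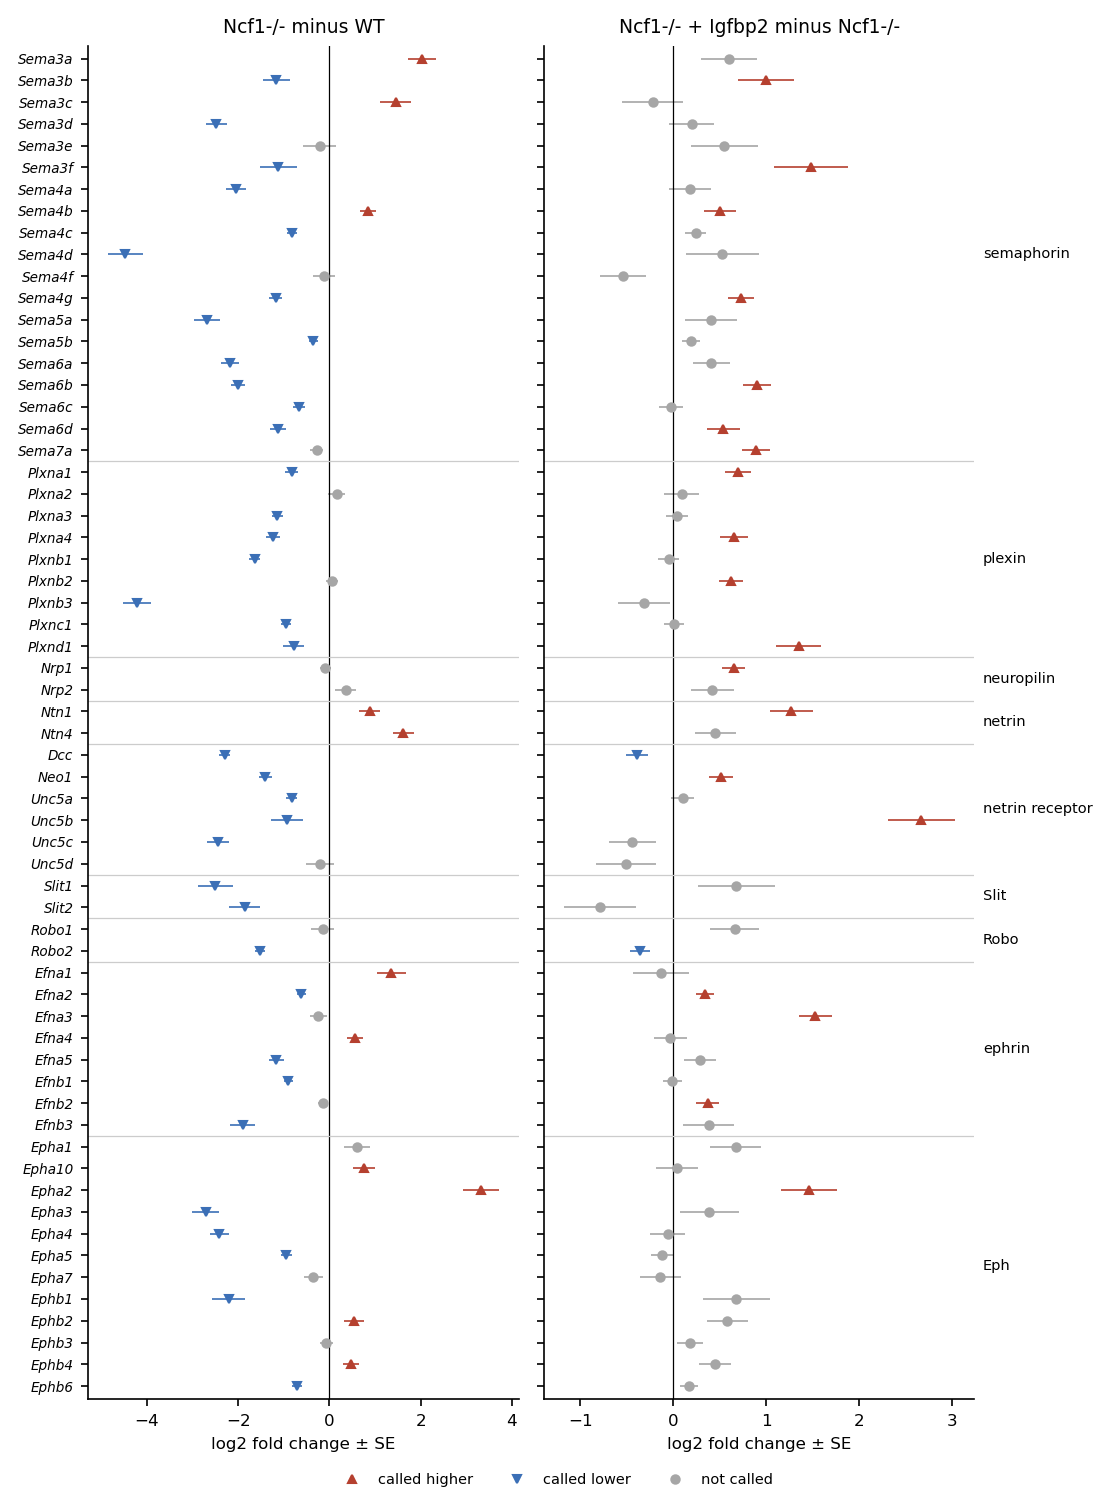
Log2 fold change (horizontal axis, with its standard error) of the 62 members tested, by family, for Ncf1-/- minus WT (left) and Igfbp2-treated minus untreated Ncf1-/- (right), with 4 libraries per group. Triangles mark calls of edgeR: 37 lower and 11 higher on the left, 2 lower and 19 higher on the right; the horizontal scales differ.

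Among the semaphorins and their receptors, Sema4d and Plxnb3 fell furthest. Sema4d, a transmembrane semaphorin that binds Plxnb1, was at 130, 142, 29.0 and 96.4 CPM in WT 9 to 12, at 4.18 to 4.66 CPM in Ncf1-/- and at 5.77 to 6.74 CPM in Igfbp2-treated libraries. WT 11 was the lowest WT library, and it was still above every Ncf1-/- library. The level was 22.2-fold lower in Ncf1-/- (log2 fold change -4.47 ± 0.39 SE, edgeR adjusted p = 1.13e-06). Plxnb3, the receptor of Sema5a, was at 741, 757, 231 and 520 CPM in WT, at 31.9, 34.5, 27.2 and 26.8 CPM in Ncf1-/- and at 22.1, 25.9, 24.1 and 25.1 CPM in Igfbp2-treated NSCs. The groups did not overlap, and the fall was 18.7-fold (-4.22 ± 0.31, adjusted p = 2.66e-07). Sema5a was at 329, 336, 105 and 265 CPM in WT against 34.7, 38.8, 37.4 and 50.8 CPM in Ncf1-/-, a 6.39-fold difference (adjusted p = 5.80e-06). WT 11 was again the lowest of the WT libraries for both this ligand and its receptor.

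Sema6a, a transmembrane ligand of A-type plexins, had 588, 679, 306 and 453 CPM in WT and 102, 107, 107 and 136 CPM in Ncf1-/- (4.49-fold lower, adjusted p = 1.94e-06). Sema3d, a secreted class 3 member, had 14, 12.3, 6.71 and 12.1 CPM in WT and 1.44, 2.13, 2.25 and 2.24 CPM in Ncf1-/- (5.56-fold lower, adjusted p = 1.70e-06). Neither pair of groups overlapped. The other semaphorins that fell had log2 fold changes from -0.35 (Sema5b) to -2.04 (Sema4a), among them Sema4g (-1.18), Sema3b (-1.16), Sema6d (-1.13), Sema3f (-1.12), Sema4c (-0.81) and Sema6c (-0.66), and Sema6b fell 3.99-fold. The call of Sema3f was lost without WT 12 (log2 fold change -0.66, adjusted p = 0.0938) and also without Ncf1-/- 1, 2 or 4, and without WT 11 and 12 together Sema3b was not called either (-0.55, adjusted p = 0.0501).

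Sema3a, Sema3c and Sema4b went the other way. Sema3a, the class 3 repellent that binds Nrp1 and A-type plexins, was at 8.10, 6.42, 23.4 and 14.3 CPM in WT and at 43.3, 50.9, 52.0 and 70.1 CPM in Ncf1-/- NSCs. Every Ncf1-/- library was above every WT library, by 4.09-fold on the fitted means (2.03 ± 0.31, adjusted p = 1.04e-04). Sema3c, another neuropilin ligand, rose from 1.68, 1.78, 3.93 and 7.18 to 8.67, 9.29, 10.2 and 11.5 CPM (2.73-fold, adjusted p = 0.00314), and Sema4b from 29.4, 32.9, 51.5 and 55.8 to 72.6, 76.1, 74.2 and 82.9 CPM (1.80-fold, adjusted p = 7.79e-04). For Sema3a the highest WT value was that of WT 11, and for Sema3c and Sema4b that of WT 12. Nrp1, the co-receptor of Sema3a and Sema3c, was at 23.0 to 30.8 CPM in WT and 20.6 to 30.4 CPM in Ncf1-/-, with a log2 difference of -0.09 ± 0.12 (adjusted p = 0.550) that was positive (0.09) when library totals were used in place of TMM factors. Nrp2 had 0.36 ± 0.23.

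Of the plexins besides Plxnb3, Plxnb1 (-1.64), Plxna4 (-1.24), Plxna3 (-1.14), Plxnc1 (-0.95), Plxna1 (-0.83) and Plxnd1 (-0.78) fell. Plxna2 (0.16 ± 0.19) and Plxnb2 (0.05 ± 0.13) were not called. Plxnd1 lost its call without WT 11 and 12 together (-0.24, adjusted p = 0.190). Plxnb1, singled out after its values were seen, was at 321 to 418 CPM in WT (413 in WT 11) and 121 to 129 CPM in Ncf1-/-, so that WT 11, low for Plxnb3, was not low for this receptor.

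Netrin ligands and netrin receptors moved apart. Ntn1, the secreted ligand of Dcc, Neo1 and Unc5 receptors, was at 59.9, 71.2, 156 and 102 CPM in WT and at 150, 172, 193 and 207 CPM in Ncf1-/- NSCs. The groups overlapped through WT 11, and the rise was 1.85-fold (0.89 ± 0.23, adjusted p = 0.00540). Ntn4, a laminin-related netrin of basement membranes, rose from 7.91, 8.26, 19.6 and 11.4 to 30.9, 36.0, 36.3 and 43.8 CPM, 3.08-fold and with no overlap (adjusted p = 5.97e-05). Dcc, the receptor that mediates attraction to netrin-1, was at 61.4, 62.5, 58.6 and 60.0 CPM in WT and at 13.7, 12.6, 11.5 and 11.8 CPM in Ncf1-/-. The WT values were close to each other, WT 11 and WT 12 included, and the fall was 4.88-fold (-2.29 ± 0.12, adjusted p = 3.74e-08). Unc5c, a repulsive netrin receptor, fell from 46.8, 46.3, 20.1 and 35.8 to 6.14, 6.87, 6.36 and 7.87 CPM (5.44-fold, adjusted p = 2.47e-06). Neo1, which binds netrins and the RGM proteins, fell from 268, 285, 199 and 313 to 89.3, 99.6, 94.7 and 121 CPM (2.63-fold, adjusted p = 2.38e-06). Neither receptor overlapped between the groups. Unc5a had -0.82 ± 0.12. The fall of Unc5b (-0.92 ± 0.35, adjusted p = 0.0378) rested on libraries that overlapped (22.7, 31.4, 7.72 and 30.4 CPM in WT, 7.80 to 16.2 CPM in Ncf1-/-), and adjusted p was between 0.0546 and 0.106 when WT 9, WT 10, WT 12, Ncf1-/- 1, Ncf1-/- 2 or Igfbp2-treated 8 was left out. Unc5d was not called (-0.21 ± 0.31).

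For the Slit and Robo families, both measured Slits and Robo2 fell. Slit1 was at 7.23, 9.66, 2.32 and 5.29 CPM in WT and 0.618 to 1.5 CPM in Ncf1-/- (5.64-fold lower, adjusted p = 1.20e-04), and Slit2 at 12.5, 16.2, 5.05 and 5.62 CPM in WT and 2.12 to 3.58 CPM in Ncf1-/- (3.64-fold lower, adjusted p = 5.42e-04). WT 11 was the lowest WT library for both. Robo2, a Slit receptor, was at 82.0, 77.4, 110 and 84.5 CPM in WT and 29.0, 31.0, 29.3 and 34.5 CPM in Ncf1-/-, with no overlap (2.86-fold lower, adjusted p = 2.25e-07). Here WT 11 was the highest library. Robo1 ranged over 41.5 to 110 CPM in WT and 55.3 to 76.7 CPM in Ncf1-/- and was not called (-0.15 ± 0.26).

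Eph receptors were split in direction. Epha2, a receptor of A-type ephrins, was at 0.0910, 0.162, 0.803 and 0.557 CPM in WT and at 3.48, 3.48, 5.17 and 5.56 CPM in Ncf1-/- NSCs. It was close to undetected in WT and rose 9.96-fold with no overlap (3.32 ± 0.40, adjusted p = 1.32e-05). Its ligand Efna1 was at 0.864, 0.648, 1.52 and 2.34 CPM in WT and 3.62, 3.29, 4.28 and 2.69 CPM in Ncf1-/- (2.57-fold higher, adjusted p = 0.00224). Epha3 fell from 9.28, 11, 4.22 and 5.85 to 0.784 to 1.37 CPM (6.56-fold, adjusted p = 6.03e-06). Epha4, which binds ephrins of both classes, fell from 88.3, 100, 55.9 and 57.2 to 13.2, 13.1, 14 and 16.4 CPM (5.31-fold, adjusted p = 6.46e-07). The groups did not overlap for either receptor. Ephb1 fell from 162, 199, 36.3 and 95.1 to 24.5, 24.1, 26.5 and 31.4 CPM (4.61-fold, adjusted p = 2.14e-04), with WT 11 near the Ncf1-/- range. Epha5 (-0.94) and Ephb6 (-0.71) fell, and Epha10 (0.76), Ephb2 (0.55) and Ephb4 (0.47) rose.

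Ephb2, the most abundant Eph receptor per length in the Ncf1-/- groups, was at 107, 122, 253 and 154 CPM in WT and 206, 229, 221 and 278 CPM in Ncf1-/-. Its groups overlapped through WT 11, and adjusted p was 0.0440 over all libraries and went up to 0.143 when single libraries were left out. The call was lost without WT 9, 10 or 12, without Ncf1-/- 2, 3 or 4 and without Igfbp2-treated 6 or 7, and kept without WT 11. The small rises of Ephb4, Epha10 and Efna4 also lost their calls without some single libraries, WT 10 or WT 12 among them. Of its transmembrane ligands, Efnb1 fell from 37.4, 41.2, 29.2 and 32.2 to 19.2, 19.3, 17.5 and 18.7 CPM (1.87-fold, adjusted p = 9.10e-06) and Efnb3 had -1.90 ± 0.27, while Efnb2 had -0.14 ± 0.12 and was not called. Efna5 (-1.16) and Efna2 (-0.62) fell, and Efna4 rose (0.56). Reads were counted without a stated strand, and exons of Epha10, Ephb1, Ephb4, Efna4, Unc5a, Unc5c, Plxna1, Plxna4, Plxnb1 and Sema4c, among others, overlap a gene on the opposite strand, so that reads of these genes and their partners could not be told apart.

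**Figure D2:**
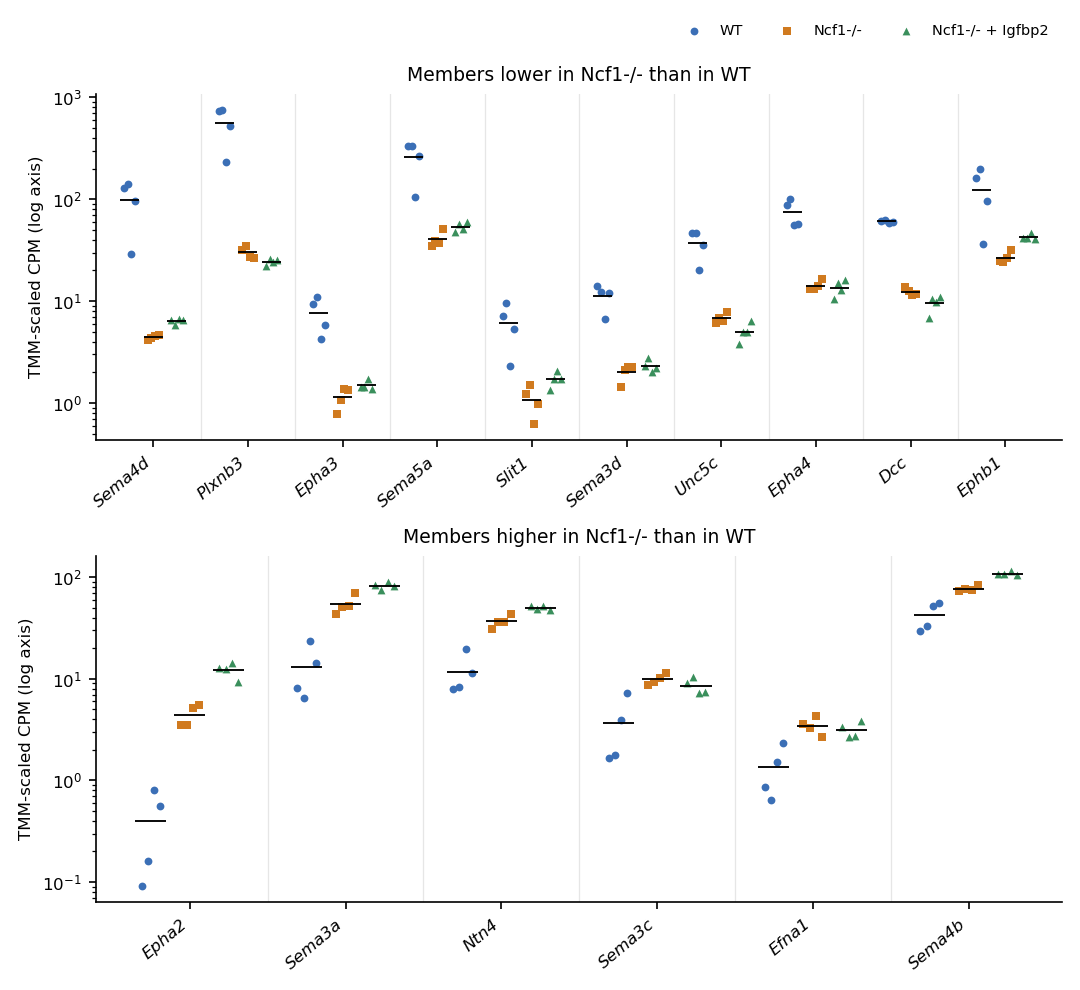
TMM-scaled CPM per library (log axis) of the 10 members with the largest falls (top) and the 6 members with the largest rises (bottom) between WT and Ncf1-/- NSCs, among called members with no overlap and a mean of at least 1 CPM. Points are libraries and bars the group means (n = 4); the third group of points is Igfbp2-treated Ncf1-/-.

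Many members that differed between the genotypes also differed between WT 11 and the other WT cultures, though Dcc differed little among WT libraries and WT 11 was not the lowest WT library for Robo2 or Plxnb1. Of the 37 members that fell, WT 11 was the lowest WT library for 25 (67.6%), and of the 11 that rose it was the highest for 7 (63.6%), against 49.1% and 41.1% of all genes called. Precursor markers (5 genes) summed to 2343 to 3554 CPM in WT and 1933 to 2094 CPM in Ncf1-/-, astrocyte markers (7 genes) to 6902 to 12196 and 2943 to 3429 CPM, and neuron markers (11 genes) to 667 to 1067 and 503 to 569 CPM. The precursor list was mixed, with Gpr17 at a mean of 1663 CPM in WT and 40.3 CPM in Ncf1-/-, while Olig1 (796 and 1450 CPM) and Olig2 (348 and 427 CPM) were higher in Ncf1-/-, and in the astrocyte list Aldh1l1 (688 and 1082 CPM) had a higher mean in Ncf1-/-. For these and the oligodendrocyte list the groups did not overlap, which gives the smallest two-sided exact permutation p that 4 against 4 libraries allow (0.0286, Benjamini-Hochberg adjusted 0.0514 over 9 lists). Stem cell markers were higher in Ncf1-/- on average (7859 against 4087 CPM, exact permutation p = 0.0857, adjusted 0.110). Microglial markers (7 genes) did not overlap either but stayed at or under 2.13 CPM in all libraries, with 4 of them (Aif1, Cx3cr1, Tmem119 and Ptprc) at the floor. Endothelial and mesenchymal lists, given with Igfbp2 below, had exact permutation p of 0.657 and 0.0571 (adjusted 0.739 and 0.0857) between the genotypes. The part of these cell type differences in the members' falls and rises was not tested. Without WT 11, all 48 calls were kept and Sema7a was added (-0.39, adjusted p = 0.0413), and without WT 12, 43 of 48 were kept.

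**Figure D3:**
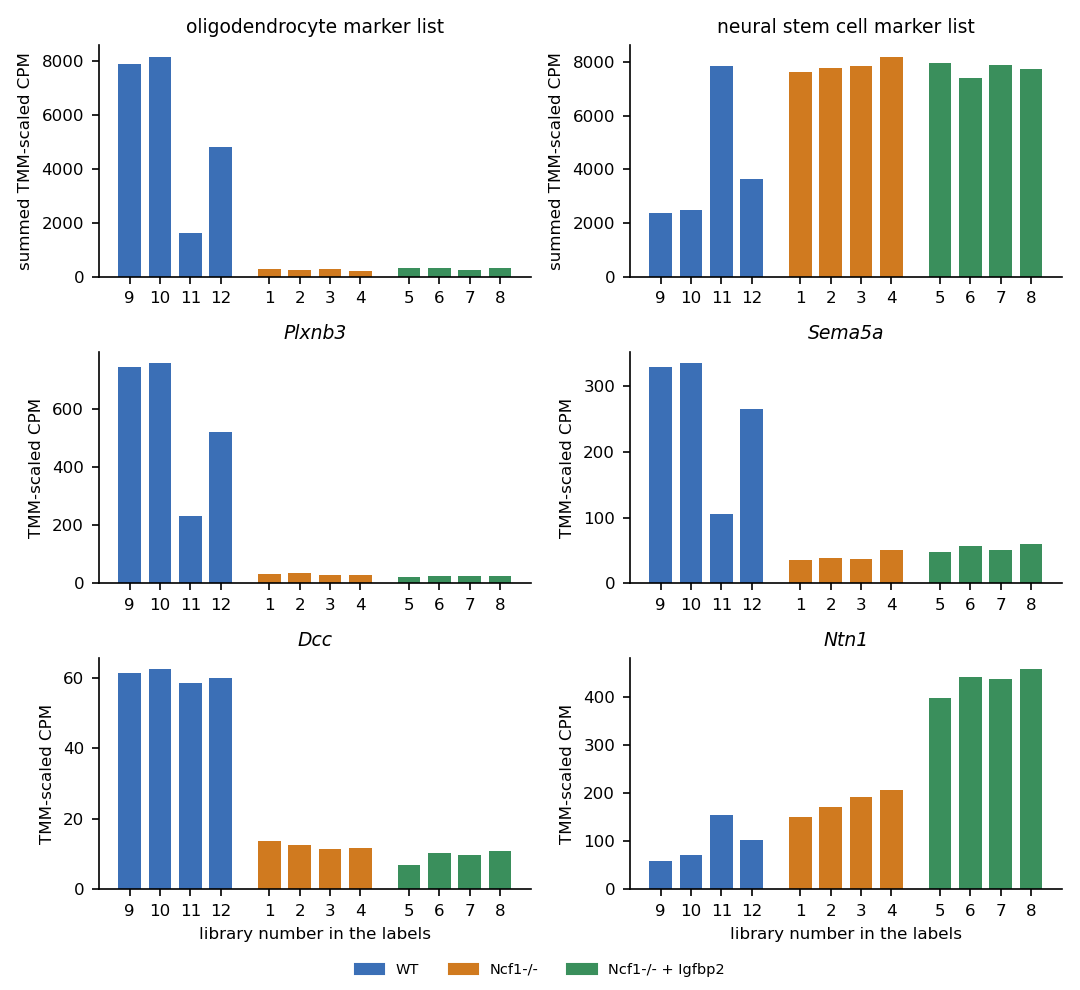
TMM-scaled CPM in each of the 12 libraries (bars, numbered as in the labels; colours mark the 3 groups) for the summed oligodendrocyte and neural stem cell marker lists and for Plxnb3, Sema5a, Dcc and Ntn1. WT 11 is low for the oligodendrocyte list (1630 CPM), Plxnb3 and Sema5a and high for the stem cell list (7831 CPM) and Ntn1, whereas Dcc lies between 58.6 and 62.5 CPM in all WT libraries.

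More guidance genes were higher than lower after Igfbp2. With TMM factors, 19 of the 62 members rose (30.6%) and 2 fell (3.23%) in Igfbp2-treated against untreated Ncf1-/- NSCs, beside 14.2% and 10.7% of all 15706 genes, and 41 were not called. The median log2 fold change was 0.38, against 0.04 for all genes. Libraries did not overlap for 26 members that were higher and 4 that were lower (19.3% and 14.7% of all genes). The rises were in 7 of 19 semaphorins, 4 of 9 plexins, 3 of 8 ephrins, 2 of 6 netrin receptors and 1 each of the neuropilins, netrins and Ephs, and no Slit or Robo was among them. These counts depended on the scaling. With library totals 11 members rose and 6 fell, beside 4.13% and 33.5% of all genes. With limma on log2(TPM + 1) 4 rose and 6 fell, beside 1.27% and 39.2% of all genes. The same scalings moved the median of all genes to -0.23 and -0.30, and the members' median stood 0.35 and 0.23 above it, against 0.34 with TMM factors. Sema4b, Efna2 and Efnb2 had negative log2 fold changes on the TPM scale (-0.01, -0.10 and -0.08). With each pair of cultures of 1 animal, as the study describes them, as a replicate block, 27 rose and 5 fell. Of all genes, 19.0% rose and 17.0% fell with the block. The calls of Dcc, Efna2 and Efnb2 were lost. Single libraries also mattered. Efna2, Efnb2, Sema3b, Sema4b, Sema6d and Neo1 each lost their call in 5 to 7 of the 8 fits that left out 1 Ncf1-/- library, treated or not.

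The largest rise was in a netrin receptor. Unc5b, a netrin receptor with a prominent role in vessels, was at 7.80, 10.5, 13.9 and 16.2 CPM in Ncf1-/- and at 68.3, 68.2, 91.8 and 79.3 CPM after Igfbp2, above all 4 WT libraries as well (7.72 to 31.4 CPM). The rise was 6.35-fold (2.67 ± 0.36, adjusted p = 8.54e-04), and it was called under every alternative run (adjusted p from 1.73e-12 to 0.00499). Ntn1 was at 150 to 207 CPM without and at 398, 442, 438 and 459 CPM with Igfbp2 (2.41-fold, adjusted p = 0.00313). Its rise with the genotype was thus followed by another after Igfbp2, with no overlap in the second comparison. Neo1 rose from 89.3, 99.6, 94.7 and 121 to 130, 150, 146 and 152 CPM (1.43-fold, adjusted p = 0.0158), which left it below the lowest WT library (199 CPM) and was not called with library totals (0.24, adjusted p = 0.169) or on the log2(TPM + 1) scale (0.04). Dcc was at 13.7, 12.6, 11.5 and 11.8 CPM without and 6.87, 10.4, 9.80 and 10.9 CPM with Igfbp2 (1.31-fold lower, adjusted p = 0.0348). This small fall, and that of Robo2 from 29.0, 31.0, 29.3 and 34.5 to 22.6, 25.1, 25.2 and 23.9 CPM (1.28-fold, adjusted p = 0.0302), were the 2 falls called. None was called without Ncf1-/- 2 or without Ncf1-/- 4, and 1 of the 2 without Ncf1-/- 1 or without Igfbp2-treated 7. Ntn4 (0.45 ± 0.22), Unc5a (0.10 ± 0.12), Unc5c (-0.44 ± 0.25), Unc5d (-0.51 ± 0.32), Slit1 (0.68 ± 0.41) and Slit2 (-0.79 ± 0.39) were not called.

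Plexins and semaphorins that had been lower in Ncf1-/- NSCs made up much of the rest. Plxnd1, the receptor of Sema3e, was at 27.6, 31.7, 36.2 and 42.6 CPM without and 77.7, 87.7, 93.7 and 93.1 CPM with Igfbp2 (2.55-fold, adjusted p = 0.00246). WT libraries spread over 35.2 to 84.9 CPM. The treated library at 77.7 CPM lay within that range, and the other treated libraries lay above it. Sema6b, a ligand of Plxna4, rose from 7.19, 8.13, 7.68 and 6.68 to 14.9, 14.1, 12.4 and 14.1 CPM (1.87-fold, adjusted p = 0.00221) and Sema4g from 17.2 to 20.8 CPM to 30.3, 31.0, 27.6 and 36.7 CPM (1.65-fold, adjusted p = 0.00357). Sema6b stayed below all WT libraries (21.7 to 39.3 CPM). For Sema4g only the treated library at 36.7 CPM reached the WT range (35.7 to 55.8 CPM). Treated cultures were still called lower than WT for Sema4g (-0.45 ± 0.14, edgeR adjusted p = 0.0109). Sema3f, a ligand of Nrp2, rose from 0.387 to 0.839 CPM to 1.15 to 1.96 CPM (2.79-fold, adjusted p = 0.0179) and Sema3b from 1.26 to 1.61 CPM to 2.33 to 2.99 CPM (2.01-fold, adjusted p = 0.0281). Both were near 1 CPM, and adjusted p went up to 0.0573 for Sema3f and 0.0767 for Sema3b when single libraries were left out. Sema7a, the GPI-anchored semaphorin that binds Plxnc1, rose from 4.09, 4.84, 5.30 and 4.25 to 9.80, 9.02, 6.5 and 9.03 CPM (1.86-fold, adjusted p = 0.00204), and no WT library exceeded 6.18 CPM. On the log2(TPM + 1) scale Sema6b, Sema4g, Sema7a, Sema3f and Sema3b had changes of 0.28, 0.19, 0.22, 0.21 and 0.04 and none was called (limma adjusted p = 0.142, 0.334, 0.0711, 0.111 and 0.873). Plxna1 (0.70), Plxna4 (0.65), Plxnb2 (0.62), Sema6d (0.54) and Sema4b (0.50) rose by less. Of these genes, Sema4b had been higher in Ncf1-/- than in WT. Plxnb2, like Sema7a, had not been called between the genotypes.

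Nrp1 was at 20.6, 23.5, 23.0 and 30.4 CPM without and 35.8, 39.2, 40.9 and 37.4 CPM with Igfbp2 (1.57-fold, adjusted p = 0.00319), above all WT libraries (23.0 to 30.8 CPM). On the log2(TPM + 1) scale it had 0.15 and was not called (limma adjusted p = 0.520). Sema3a, its ligand, had 43.3 to 70.1 CPM without and 82.9, 74.6, 88.9 and 81.1 CPM with Igfbp2. These libraries did not overlap, yet the difference was not called over all 12 libraries (0.60 ± 0.30, adjusted p = 0.153) and was called without WT 11 (0.56, adjusted p = 0.0362), which enters through the shared estimate of the spread. Leaving out WT 11 gave calls to 9 members in all in this comparison, among them Ephb1, Ephb2, Robo1 and Sema4d, and took that of Efnb2. Plxnb3, Sema5a and Sema6a, all lower in Ncf1-/- than in WT, had log2 fold changes of -0.31 ± 0.28, 0.41 ± 0.28 and 0.41 ± 0.20 after Igfbp2 (the last 2 were -0.04 and -0.10 on the log2(TPM + 1) scale) and were not called over all libraries. Their treated levels (22.1 to 25.9, 47.3 to 59.6 and 130 to 166 CPM) were all below the lowest WT library.

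In the ephrin and Eph families, Efna3 and Epha2 rose furthest. Efna3 was at 2.13, 1.64, 2.03 and 2.05 CPM without and 6.15, 5.53, 6.12 and 5.06 CPM with Igfbp2 (2.90-fold, adjusted p = 4.96e-04), while WT libraries lay at 1.78 to 3.17 CPM. Per kb of effective length, which differs between libraries, its mean was 1.64 ± 0.474 without and 2.87 ± 0.286 with Igfbp2, and on the log2(TPM + 1) scale the change was 0.22 and not called (limma adjusted p = 0.178). Exons of Efna3 overlap Gm15998 on the opposite strand, so reads of these genes could not be told apart. Epha2 rose from 3.48, 3.48, 5.17 and 5.56 to 12.8, 12.4, 14.4 and 9.33 CPM (2.76-fold, adjusted p = 0.00543). Its level thus moved further from WT with Igfbp2, as that of Ntn1 did. Efna2 (0.34) and Efnb2 (0.37) rose by less, and Efnb1 (-0.01 ± 0.10), Epha4 (-0.06 ± 0.19) and Ephb2 (0.58 ± 0.22, adjusted p = 0.0658) were not called. Endothelial markers (6 genes) summed to 4.49 to 8.73 CPM without and 11.6 to 16.5 CPM with Igfbp2, and mesenchymal markers (7 genes) to 8.84 to 11.2 and 20.5 to 24.5 CPM (exact permutation p = 0.0286 and adjusted p = 0.0643 for each), with 1 of the 6 (Cdh5) and 1 of the 7 (Lum) at the floor in each library of both groups. Flt1 carried most of the endothelial difference (mean 3.98 without and 10.1 CPM with Igfbp2). Kdr (1.43 and 1.67), Pecam1 (0.495 and 0.602) and Tek (0.354 and 0.317) differed little, and Cldn5 was higher but low (0.0449 and 0.243). Acta2 (6.14 and 13.3 CPM) carried most of the mesenchymal difference. Col1a1 (2.18 and 4.52), Col1a2 (0.685 and 2.06) and Pdgfrb (0.315 and 1.31) were also higher, Rgs5 (0.544 and 0.816) less so, and Dcn was near the floor. In WT the lists summed to 4.96 to 10.8 and 10.5 to 24.5 CPM. Their part in the rise of Unc5b, Plxnd1, Epha2 and Nrp1, genes that vessels also express, was not tested. Neuron markers were at 503 to 569 CPM without and 459 to 490 CPM with Igfbp2 (exact permutation p = 0.0286, adjusted p = 0.0643). Map2 (mean 480 without and 425 CPM with Igfbp2) carried most of this difference, and the list was mixed. Tubb3 (11.4 and 7.44 CPM) and Dcx (7.75 and 4.34 CPM) were lower, whereas Elavl3 (13.9 and 20.2 CPM), Gad1, Gad2, Rbfox3 and Stmn2 had higher means.

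**Figure D4:**
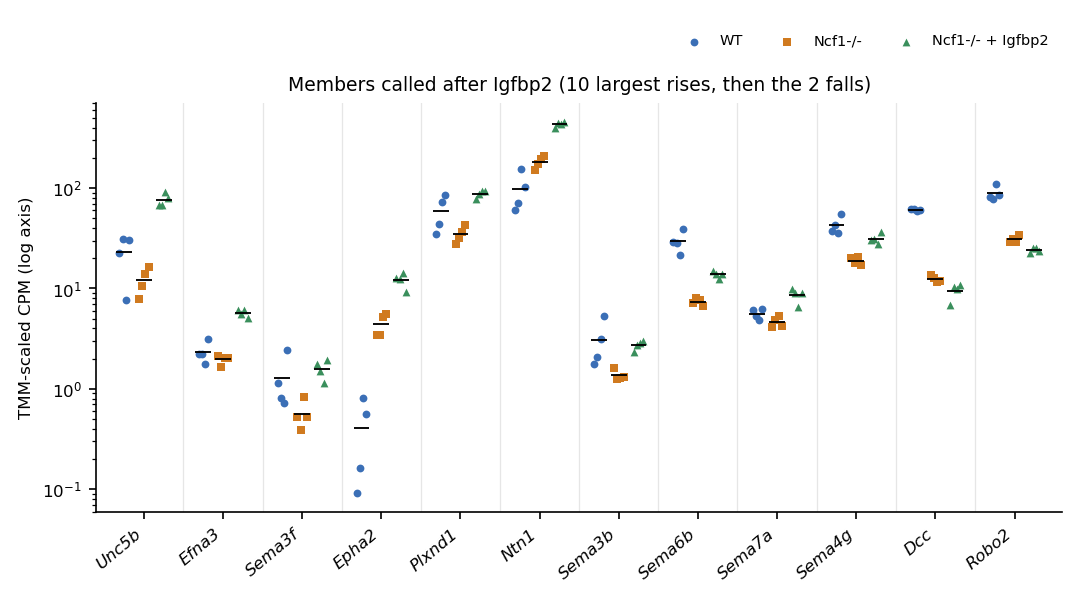
TMM-scaled CPM per library (log axis) of the 10 members with the largest rises and of Dcc and Robo2, the 2 that fell, in Igfbp2-treated against untreated Ncf1-/- NSCs, with WT beside them (n = 4 each; bars are group means). Unc5b, Efna3, Epha2, Ntn1 and Sema7a lie above all WT libraries after Igfbp2, whereas Sema6b, Dcc and Robo2 lie below them.

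Side by side, the comparisons grouped the members as follows, with the Ncf1-/- libraries common to both. A set of 11 members (17.7% of those tested, against 6.27% of all genes) was lower in Ncf1-/- than in WT and higher after Igfbp2 (Efna2, Neo1, Plxna1, Plxna4, Plxnd1, Sema3b, Sema3f, Sema4g, Sema6b, Sema6d and Unc5b). In all, 3 were higher in both comparisons (Epha2, Ntn1 and Sema4b), and Dcc and Robo2 were lower in both. A further 24 were lower in Ncf1-/- and not called after Igfbp2, 8 were higher and not called, 5 were called higher after Igfbp2 and not between the genotypes (Efna3, Efnb2, Nrp1, Plxnb2 and Sema7a) and 9 in neither. No member that was higher in Ncf1-/- was called lower after Igfbp2, a state held by 3.23% of all genes. No member was called lower after Igfbp2 alone either, against 5.84% of all genes. Whether these absences set the members apart from other genes was not tested. Of all genes, 3.40% were higher in both comparisons, 1.66% lower in both, 20.3% lower and then not called, 22.3% higher and then not called, 4.58% called higher after Igfbp2 alone and 32.4% called in neither. Both comparisons use the same Ncf1-/- libraries, and an error in these moves the 2 in opposite directions, so members lower in the first and higher in the second can arise without any effect of Igfbp2. The grouping also depends on the WT libraries, which enter the shared estimate of the spread. Fitted on the 2 Ncf1-/- groups alone, 13 members not called after Igfbp2 above gained a call and Efnb2 lost its own. Plxnb3, Sema4d, Sema5a, Sema6a, Sema3a and Ntn4 were among the 13.

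Set against WT directly, Igfbp2-treated Ncf1-/- NSCs had 19 members higher and 32 lower, beside 31.6% and 30.8% of all genes, with a median log2 fold change of -0.52 (all genes -0.01). Libraries did not overlap for 16 members that were higher and 28 that were lower, against 27.8% and 26.6% of all genes. Plxna1 (-0.13 ± 0.14), Sema3b (-0.16 ± 0.28), Sema3f (0.36 ± 0.37) and Sema5b (-0.16 ± 0.10) were lower in Ncf1-/- and not called in treated cultures against WT, which does not show that they were equal. Unc5b was lower than WT without Igfbp2, a call that single libraries decided, and higher with it (1.75 ± 0.34). Plxnd1 had 0.57 ± 0.23 (edgeR adjusted p = 0.0455) against WT with overlapping libraries, and this call was lost on the TPM scales, with library totals, and without WT 9 or 10, Ncf1-/- 2, 3 or 4 or any 1 of the treated libraries. Epha2 (4.78 ± 0.39), Sema3a (2.63 ± 0.32), Ntn1 (2.16 ± 0.24) and Ntn4 (2.07 ± 0.24) were the members furthest above WT, and Plxnb3 (-4.53 ± 0.31), Sema4d (-3.95 ± 0.38), Unc5c (-2.88 ± 0.25) and Dcc (-2.67 ± 0.12) the furthest below.

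Other genes of these pathways, a list of 70 co-receptors, further ligands and intracellular effectors of which 68 could be tested, had 41 members lower and 12 higher in Ncf1-/- than in WT NSCs (median log2 fold change -0.48), beside 28.2% and 28.9% of all genes. All 7 co-receptors were called, 6 of them lower. L1cam, a cell adhesion molecule that pairs with Nrp1, was at 3.41, 3.18, 1.55 and 3.23 CPM in WT and 0.194 to 0.436 CPM in Ncf1-/- (log2 fold change -3.20, adjusted p = 1.46e-05), and Cntn2 fell from 3.13 to 10.8 CPM to 0.261 to 0.968 CPM (-3.32, adjusted p = 4.07e-05). Chn2, a chimaerin that inactivates Rac downstream of guidance receptors, had the largest fall of the list (-3.98, adjusted p = 8.93e-07). It was at 300, 268, 76.0 and 169 CPM in WT and 12.4 to 13.8 CPM in Ncf1-/-, with WT 11 lowest again. Chl1 (1.51), Ntng1 (1.63) and Vav3 (1.94), an exchange factor that acts below Eph receptors, rose. After Igfbp2, 18 of the 68 rose and 3 fell (median 0.23), beside 14.2% and 10.7% of all genes. Rras, a small GTPase inactivated by plexins, rose from 11 to 14.5 CPM to 21.4 to 31.5 CPM (1.04, adjusted p = 0.0143), Chn2 to 23.1 to 28.0 CPM (0.99, adjusted p = 0.0360, but 0.0637 to 0.0975 when any 1 Ncf1-/- library, treated or not, was left out and 0.076 with library totals) and Islr2 from 2.91 to 3.66 CPM to 5.21 to 6.09 CPM (0.77, adjusted p = 0.00600). Flrt3, a ligand of Unc5 receptors, fell from 17.3 to 22.3 CPM to 9.92 to 11.2 CPM (-0.83, adjusted p = 0.00378), and Cdk5 (-0.37) and Limk2 (-0.33), kinases of the cytoskeletal response, fell by less. The call of Limk2 was lost without Ncf1-/- 1 or 2 or treated 6 or 8. The rises of Rras, Chn2 and Islr2 were not called on the TPM scale (log2 fold changes 0.50, 0.38 and 0.13).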

How the data were processed

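RNA of 12 cultures (3 groups of 4, grouped by the GEO labels) was depleted of rRNA and sequenced. Per the submitters' processing notes, the authors used RSEM, Bowtie2 and GRCm38, and they deposited, for each gene and library, an expected count, TPM, FPKM and effective length. Versions and the strand used in counting are not given in the sources used here. FPKM was not used. A merged table that the authors deposited holds, as a score, the TPM of each library or a whole multiple of it (within 0.01), and only its gene symbols were used. Of the deposited expected counts, 14.5 to 17.8% per library were not whole, and they were rounded. Totals were 18201622 to 34086554 per library.

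Genes were tested in R 4.3.3 with edgeR 4.0.16 (filterByExpr, TMM factors, quasi-likelihood F test over all 12 libraries with group means, Benjamini-Hochberg adjustment over 15706 genes, called at an adjusted p under 0.05). The standard error was the log2 fold change divided by the root of F, with a median of 0.141 for Ncf1-/- against WT and 0.140 for Igfbp2. The procedure was tested on simulated data with the same spread in all groups and few genes changed. That test does not cover the unequal spread and the many changed genes seen here. Levels were TMM-scaled CPM, per kb of effective length between genes. Fold errors are standard errors and level errors SDs. A gene was at the floor with 3 counts or fewer in each library. One oligodendrocyte marker gene is not reported here and was left out of its sum. Marker sums were compared by two-sided exact permutation tests. Alternatives used DESeq2 1.42.0, limma 3.58.1 on log2(TPM + 1) and log2(TPM + 0.1) from the deposited TPM, library totals, other filters and thresholds, the 2 groups alone, a replicate block and each library left out. They also left out WT 11 and 12 together, which was chosen after the data were seen.

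The members and gene lists were chosen with earlier results of these data known. Values per library are given for up to 10 called members per direction with the largest fitted change, no overlap and a mean of at least 1 CPM, and for the member with the highest level per kb in WT in each family. Of the pathway list, up to 3 genes per direction are named. The study pairs Ncf1-/- 1 to 4 with Igfbp2-treated 5 to 8 as cultures of the same animals. The labels do not, Y-linked genes go against it, and deviations from the group means correlated at -0.0674 to 0.033 within these pairs and -0.247 to 0.257 between others, so the block is an alternative. The study's methods state that each WT and each Ncf1-/- culture came from a separate pup, which the labels do not give. Xist and Y-linked RNA were found together in all 4 untreated Ncf1-/- libraries, so n = 4 may not count animals. Promoter sequences are from RefSeq, with an entry for 59 of 69 members.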

Additional observations from a re-analysis of the deposited data

Results flagged for a closer look

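Of 123 groups of 4 libraries checked for a library far from the other 3 (a gap above Dixon's 95% critical value, which chance gives in about 1 in 20 groups), 7 had one. Among members, Ephb1 was at 46.4 CPM in Igfbp2-treated replicate 7, with the others at 41.1 to 41.5 CPM. Sema3b was at 1.61 CPM in Ncf1-/- replicate 1 (others 1.26 to 1.31), and Sema3d at 1.44 CPM in the same library (others 2.13 to 2.25). Sema6a was at 136 CPM in Ncf1-/- replicate 4 (others 102 to 107). Endothelial markers summed to 16.5 CPM in Igfbp2-treated replicate 7 (others 11.6 to 12.3), and oligodendrocyte precursor markers to 2343 CPM in WT replicate 11 (others 3427 to 3554). Y-linked genes summed to 6.46 CPM in WT replicate 12 (others 107 to 118).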

How the results depend on the processing

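The 37 members that fell in Ncf1-/- NSCs stayed within 1.5 times that count under every alternative run. The 11 that rose became 7 at an adjusted p under 0.01 and 5 at a log2 fold change of at least 1. After Igfbp2, the 19 rises became 11 with library totals, 4 with either log2(TPM) scale, 12 at an adjusted p under 0.01, 7 at that fold and 30 without WT 11 and 12, and leaving out single libraries gave 13 to 27. The count of 30 includes a member too low to be tested over all libraries. Of all genes, 4.13% rose with library totals, 1.27% and 1.05% with log2(TPM + 1) and log2(TPM + 0.1), and 19.4% without WT 11 and 12. The 2 falls became 6 with library totals, 6 and 9 with log2(TPM + 1) and log2(TPM + 0.1), 5 with the 2 groups alone, 5 with the replicate block, 5 without WT 11 and 12, and 0 with no filter, at an adjusted p under 0.01 or at that fold, and 0 to 3 without single libraries. Of all genes, 33.5% fell with library totals, 39.2% and 40.5% with those log2(TPM) scales and 4.73% with no filter. With the 2 groups alone, with the block and without WT 11 and 12 these shares were 18.3%, 17.0% and 17.5%. Against WT, the 19 members higher in treated NSCs became 8 with either log2(TPM) scale and 11 at that fold, and the 32 lower became 19 at that fold. Of all genes, 12.5% and 13.0% were higher on the log2(TPM + 1) and log2(TPM + 0.1) scales.

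Of 76 fits of named genes, these log2 fold changes turned in sign. After Igfbp2 on the log2(TPM + 1) and log2(TPM + 0.1) scales, Sema4b had -0.01 and -0.01, Sema4d -0.01 and -0.02, Epha3 -0.01 and -0.05, Sema5a -0.04 and -0.05, Sema3d -0.09 and -0.30 and Sema6a -0.10 and -0.11. With library totals Sema3d had -0.07. Without single libraries, Epha4 ranged over -0.18 to 0.03 and Efnb1 over -0.09 to 0.01. Between the genotypes, Efna3 had 0.05 and 0.07 on the TPM scales and Nrp1 0.09 with library totals. Only Sema4b was a called member among these. Apart from these fits, the summed oligodendrocyte markers had -0.05 with library totals after Igfbp2. The cause was not tested. All counts depend on the assumption behind the scaling, since the median of all genes after Igfbp2 was 0.04 with TMM factors, -0.23 with library totals and -0.30 with log2(TPM + 1). With 4 libraries per group and a median standard error of 0.140, small changes may go uncalled.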
